A study of Mus musculus with 26 samples.

Results

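Interferon-stimulated genes were examined in mouse embryonic fibroblasts (MEFs) in which the chromatin remodeler ATRX had lost its RNA-binding region (RBR) or was targeted by shRNA. The genes were 39 listed interferon-stimulated and antiviral sensing genes, taken by symbol and matched to Ensembl identifiers with the GENCODE M21 annotation. Each of the 39 was found among the 53801 gene identifiers of the RNA-Seq files. The list follows no measured value, but it was drawn up with earlier results of these data known. Their RNA was measured in 6 RNA-Seq libraries, and their start sites were compared with 16 lists of CUT&RUN peaks, an assay in which antibody-bound chromatin fragments are cut loose and sequenced.

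All cells were female MEFs. The parental cells are called WT. ATRXΔRBR cells carry a CRISPR deletion of the RBR in the endogenous Atrx gene and came from 1 clone, so the deletion and clonal differences cannot be told apart. ATRX KD cells were made with an shRNA against ATRX and selected with puromycin. RNA was profiled in 2 libraries of each genotype. EZH2, the enzyme that methylates lysine 27 of histone H3, and its product H3K27me3, a mark of polycomb repression, were each profiled in 2 libraries of each genotype, and ATRX in 2 libraries of WT and 2 of ATRXΔRBR. The labels name no treatment with interferon or virus.

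Type I interferons bind a receptor on the cell surface, and the kinases JAK1 and TYK2 then phosphorylate proteins of the STAT family. STAT2 and IRF9 are parts of a complex that binds the interferon-stimulated response element (ISRE) in the promoters of interferon-stimulated genes. Many of these genes also have a low level without added interferon. Their products sense viral nucleic acid, block viral replication, or feed back on the pathway itself.

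RNA-Seq depth was between 9051712 and 21723597 estimated counts per library, and mitochondrial genes took 2.13 to 2.77% of them. Atrx RNA was 233 and 141 TPM (the authors' level per transcript length, scaled to the library) in WT, 175 and 124 TPM in ATRXΔRBR, and 331 and 512 TPM in the libraries labelled ATRX KD. It was not lower in the libraries labelled ATRX KD by the test (log2 fold change -0.16, adjusted p = 0.605), and it was higher in TPM. The knockdown is thus not seen in this RNA. The paper describes ATRX as acutely depleted in its knockdown MEFs and assessed the protein there by western blot. The 2 libraries labelled ATRX KD also differ from the other 4 in a length value of their files, for a reason that the labels do not give. The gap between gene length and effective length given by RSEM was 36.55 in them and 37.0 in the others. Genotype and library handling cannot be told apart for them. Of 12 fibroblast markers, 3 stayed at 3 counts or fewer in every library (Thy1, Lum and Fap), and the summed level of the list moved with genotype, at 13680 and 11370 TPM in WT, 21230 and 23300 TPM in ATRXΔRBR and 18610 and 18850 TPM in ATRX KD. Of the 9 fibroblast markers tested, 8 had a log2 fold change above 0 in ATRXΔRBR (median 0.40), with S100a4 called higher and the fibrillar collagen Col3a1 called lower. In ATRX KD 3 were called higher (S100a4, Fn1 and Pdgfrb) and 2 lower (Col3a1 and Dcn), with a median of 0.03. Of 10 macrophage and leukocyte markers, 5 were at 3 counts or fewer in every library, among them Ptprc, Adgre1 and Tyrobp, and the list summed to 37.2 to 50.6 TPM, mostly from Cd14. The part of other cells in the results below was not tested.

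Promoter sequences of 31 of the 39 genes were found in the RefSeq table of GRCm38.p6, each running from 250 bases before to 50 bases after the annotated start. The core of the ISRE was searched as GAAA, any 2 bases and GAAA again, on both strands and with overlapping matches counted. It was present in 13 of these 31 promoters (41.9%), compared with 3.47% of 16521 promoters taken from the table. Those 16521 belong to protein-coding genes, and a whole chromosome was left out of them. The gamma-activated site, an element bound by STAT dimers, was searched as TTCNNNGAA, which reads the same on both strands. It was present in 8 of 31 (25.8%), compared with 7.81% of the 16521 promoters. A match describes the letters only. The promoters of 6 genes on which the results below turn are shown 5′ to 3′ on the strand of the gene, with ISRE core matches in capitals. Dtx3l (chr16:35938978-35939277, minus strand) and Ifit1 (chr19:34640639-34640938, plus strand) had H3K27me3 peaks in ATRXΔRBR and not in WT. Isg15 (chr4:156200769-156201068, minus strand) and Ifih1 (chr2:62646206-62646505, minus strand) hold a match and were lower in ATRX KD, and Ddx58 (chr4:40239776-40240075, minus strand) holds a match and was higher. Trim25 (chr11:88999153-88999452, plus strand) had the widest range between genotypes and has no match in this window.
Dtx3l: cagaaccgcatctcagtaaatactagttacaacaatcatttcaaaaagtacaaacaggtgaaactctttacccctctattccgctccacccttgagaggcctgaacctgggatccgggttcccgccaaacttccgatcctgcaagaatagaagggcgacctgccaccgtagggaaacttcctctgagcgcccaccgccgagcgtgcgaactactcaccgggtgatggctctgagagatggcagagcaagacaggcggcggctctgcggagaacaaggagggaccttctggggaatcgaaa
Ifit1: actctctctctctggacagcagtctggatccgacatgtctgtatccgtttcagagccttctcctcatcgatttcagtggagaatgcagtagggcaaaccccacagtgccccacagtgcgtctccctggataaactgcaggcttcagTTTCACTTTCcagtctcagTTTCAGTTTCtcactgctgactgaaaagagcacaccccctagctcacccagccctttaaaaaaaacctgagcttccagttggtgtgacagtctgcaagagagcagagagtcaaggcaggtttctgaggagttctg
Isg15: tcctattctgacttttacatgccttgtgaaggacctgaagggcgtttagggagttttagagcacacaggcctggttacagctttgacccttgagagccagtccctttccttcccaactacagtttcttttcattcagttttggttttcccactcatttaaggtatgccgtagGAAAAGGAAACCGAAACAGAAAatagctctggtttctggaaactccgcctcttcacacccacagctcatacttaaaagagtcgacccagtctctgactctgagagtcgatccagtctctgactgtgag
Ifih1: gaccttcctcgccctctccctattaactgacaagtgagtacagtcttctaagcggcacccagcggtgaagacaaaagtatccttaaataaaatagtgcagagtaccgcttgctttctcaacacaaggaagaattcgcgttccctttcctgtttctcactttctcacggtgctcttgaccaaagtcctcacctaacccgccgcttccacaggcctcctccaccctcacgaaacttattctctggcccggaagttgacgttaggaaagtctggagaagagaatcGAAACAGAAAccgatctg
Ddx58: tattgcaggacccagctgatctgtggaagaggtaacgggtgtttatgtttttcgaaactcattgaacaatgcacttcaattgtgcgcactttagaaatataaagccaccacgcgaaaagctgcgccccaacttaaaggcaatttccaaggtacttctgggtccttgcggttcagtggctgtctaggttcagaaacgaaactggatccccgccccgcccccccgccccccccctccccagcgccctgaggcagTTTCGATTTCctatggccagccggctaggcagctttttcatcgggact
Trim25: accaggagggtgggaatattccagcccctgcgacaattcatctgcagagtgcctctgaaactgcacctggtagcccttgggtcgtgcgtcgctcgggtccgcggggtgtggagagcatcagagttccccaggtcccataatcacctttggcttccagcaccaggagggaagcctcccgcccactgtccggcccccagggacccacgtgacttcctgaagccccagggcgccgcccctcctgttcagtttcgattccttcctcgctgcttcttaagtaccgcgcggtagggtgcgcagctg
In Isg15 the 3 matches overlap and begin at -78, -72 and -66 relative to the start. In Ifit1 the 2 matches begin at -104 and -85. The single matches of Ifih1 and Ddx58 lie after the annotated start, beginning at 32 and 2.

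The 39 genes covered a wide range of levels in these unstimulated cells. Averaged over the 6 libraries, 14 genes were at 10 TPM or more, 12 between 1 and 10 TPM and 13 under 1 TPM. Zbp1, a sensor of Z-form nucleic acid, had 0 counts in every library. Ifitm3, which blocks the entry of viruses through endosomes, was the most abundant at a mean of 225 TPM, followed by the transcription factor Irf1 (45.7 TPM), the double-stranded RNA-activated kinase Eif2ak2 (42.7 TPM) and Ifi35 (40.4 TPM). Genes known for strong induction by interferon were spread over the range. Means were 2.16 TPM for Isg15, 0.88 TPM for Ifit1, 0.10 TPM for Rsad2 and 0.38 TPM for Mx1. They were 34.7 TPM for Ifit2, 16.6 TPM for Ifit3 and 12.6 TPM for Bst2. The summed level of the 39 genes was 631 and 659 TPM in WT, 615 and 612 TPM in ATRXΔRBR, and 633 and 633 TPM in ATRX KD. The sums differed little although single genes moved in both directions. Ifitm3 alone gave 293 and 265 TPM of the sums in WT and 109 and 117 TPM in ATRX KD. The similar sums in ATRX KD thus hold its fall together with rises of other genes.

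**Figure D1:**
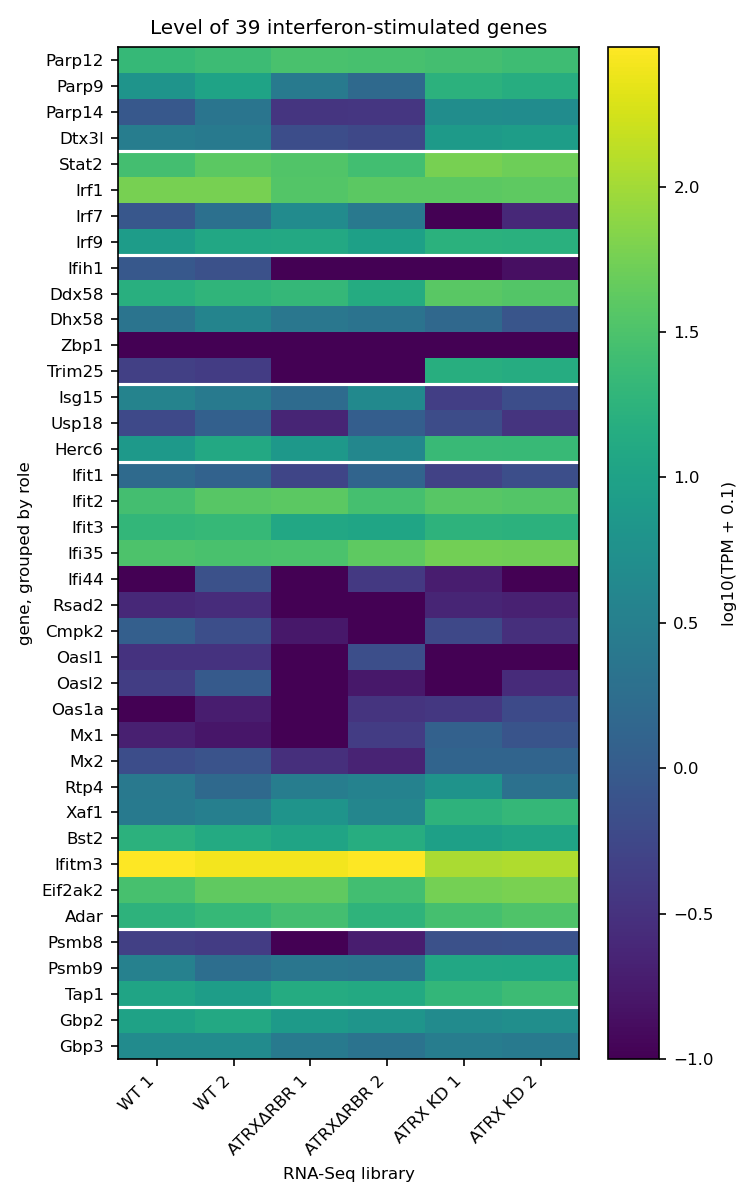
Level of the 39 genes (rows, grouped by role) in the 6 RNA-Seq libraries (columns), as log10 of TPM plus 0.1. Ifitm3 has the brightest row, Zbp1 is dark throughout, and Parp9, Parp14, Dtx3l and Trim25 are darkest in ATRXΔRBR and brightest in ATRX KD.

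The first comparison asked how RNA of these genes differed when ATRX lacked its RBR. In ATRXΔRBR compared with WT, 6 of the 31 genes tested fell and 0 rose, at an adjusted p under 0.05 (edgeR's quasi-likelihood test, adjusted after Benjamini and Hochberg over all 16334 genes tested, as for every adjusted p given here). Over all genes 6.85% were called, 4.07% lower and 2.79% higher, compared with 19.4% of the tested members. The genes that fell were Parp9, Parp14, Dtx3l, Ifih1, Trim25 and Ifit3. The median log2 fold change of the members tested was -0.31, compared with -0.02 for all genes. The other 8 members (Ifi44, Rsad2, Oasl1, Oasl2, Oas1a, Mx1, Psmb8 and Zbp1) had at most 6 counts in any WT or ATRXΔRBR library and were not tested. The filter asked for more than 10 counts over the libraries compared, and 5 of the 31 (Ifih1, Trim25, Cmpk2, Mx2 and Usp18) reached it in WT but not in ATRXΔRBR. Ifih1 and Trim25, at 0 counts in both ATRXΔRBR libraries, could only be called lower. Leaving out such genes, 4 of 26 members (15.4%) were called, compared with 5.28% of 14709 genes over all.

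The 3 largest falls among genes with counts in every library were in a family of ADP-ribosyltransferases and their partner. Parp9 was 6.22 and 10.3 TPM in WT and 2.53 and 1.47 TPM in ATRXΔRBR. The groups did not overlap, and Parp9 was 4.47-fold lower (log2 fold change -2.16 ± 0.33 SE, adjusted p = 0.00761). Its product works as a complex with the ubiquitin ligase DTX3L and is known for enhancing interferon signalling. Dtx3l was 2.89 and 2.56 TPM in WT and 0.57 and 0.46 TPM in ATRXΔRBR, a fall by 2.42 ± 0.32 on the log2 scale (adjusted p = 0.00417). Parp14, a mono-ADP-ribosyltransferase, was 0.81 and 2.17 TPM in WT and 0.24 and 0.26 TPM in ATRXΔRBR, and it fell by 2.35 ± 0.46 on the log2 scale (adjusted p = 0.0212). All 3 stand in a cluster on chromosome 16, where the start sites of Parp9 and Dtx3l are 681 bp apart on opposite strands and that of Parp14 is 66926 bp from that of Parp9. The genes Parp9 and Dtx3l overlap, and although the kit marks strand, the strand setting of the counting is not given in the sources used here. Parp12, a further ADP-ribosyltransferase of the list, lies on chromosome 6. The study on these samples singled it out as a polycomb target gene. By RT-PCR it reported Parp12 higher in ATRXΔRBR, as much as in WT cells given an EZH2 inhibitor. Within 2 kb of the start of Parp12, an EZH2 peak was found in WT list 2 alone and an H3K27me3 peak in no list. In the RNA-Seq libraries Parp12 was 21.4 and 23.9 TPM in WT and 30.6 and 29.4 TPM in ATRXΔRBR. Both ATRXΔRBR libraries were above both WT libraries, but the difference did not pass the test (log2 fold change 0.37 ± 0.17, adjusted p = 0.269).

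Among the nucleic acid sensors, Ifih1 encodes MDA5, a sensor of long double-stranded RNA. Its counts were 13 and 12 in the WT libraries and 0 in both of ATRXΔRBR, at least 7.74-fold lower when 3 counts are allowed over the group (adjusted p = 0.0212). Trim25 encodes a ubiquitin ligase known as a cofactor of RIG-I. Its counts were 14 and 10 in the WT libraries and 0 in both of ATRXΔRBR, at least 7.43-fold lower (adjusted p = 0.0239). Both genes were thus already low in WT, at 0.81 and 0.63 TPM for Ifih1 and 0.35 and 0.31 TPM for Trim25. Ddx58, which encodes RIG-I, was 15.7 and 18.7 TPM in WT and 20.7 and 13.8 TPM in ATRXΔRBR, and the groups overlapped (log2 fold change 0.01 ± 0.19, adjusted p = 0.985). Dhx58, encoding the regulator LGP2 of the same family, was 2.09 and 3.60 TPM in WT and 2.27 and 2.00 TPM in ATRXΔRBR (log2 fold change -0.03 ± 0.35, adjusted p = 0.974).

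Of the 18 antiviral effectors, 12 were tested and 1 fell. Ifit3, a member of the family of proteins that bind viral RNA ends, was 19.97 and 21.4 TPM in WT and 12.1 and 11.1 TPM in ATRXΔRBR (log2 fold change -0.89 ± 0.20, adjusted p = 0.0361). This call was lost without WT replicate 1 (adjusted p = 0.0723), without ATRXΔRBR replicate 1 (0.0894) or without ATRXΔRBR replicate 2 (0.111), and with DESeq2, which called 5 members and 6.88% of all genes. Reads may also be divided with its near-identical neighbour Ifit3b, which had 6.81 and 5.70 TPM in WT and 2.61 and 3.12 TPM in ATRXΔRBR. Ifit2, next to it, was 27.7 and 38.1 TPM in WT and 40.2 and 28.8 TPM in ATRXΔRBR, with overlapping groups (log2 fold change -0.02 ± 0.21). Ifitm3 was 293 and 265 TPM in WT and 262 and 302 TPM in ATRXΔRBR (log2 fold change -0.04 ± 0.20), Eif2ak2 28.9 and 42.6 TPM against 42.6 and 26.5 TPM (-0.16 ± 0.23), Ifi35 32.5 and 30.0 TPM against 31.4 and 41.2 TPM (0.10 ± 0.23), and the RNA-editing enzyme Adar 17.4 and 21.1 TPM against 27.7 and 18.4 TPM (0.18 ± 0.18). The genotypes overlapped in each of these abundant genes. Lower in the range, Cmpk2, a nucleotide kinase gene next to Rsad2, had 6 and 6 counts in the WT libraries and 1 and 0 in those of ATRXΔRBR (adjusted p = 0.151), and Bst2, which tethers virions to the cell surface, was at 17.1 and 13.3 TPM against 10.6 and 14.7 TPM (log2 fold change -0.31 ± 0.33).

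No transcription factor of the list passed the test in ATRXΔRBR. Irf1 was 57.7 and 59.1 TPM in WT and 35.0 and 40.3 TPM in ATRXΔRBR, so the groups did not overlap, but the difference missed the threshold (log2 fold change -0.67 ± 0.19, adjusted p = 0.0843). Stat2 was 27.4 and 39.8 TPM in WT and 34.5 and 26.3 TPM in ATRXΔRBR (log2 fold change -0.02 ± 0.18). The guanylate-binding protein genes Gbp2 and Gbp3, whose GTPases act on intracellular pathogens, had adjusted p of 0.0962 and 0.065 at log2 fold changes of -0.73 ± 0.22 and -1.09 ± 0.29. Genes of the ISG15 system and of antigen processing did not pass either, with log2 fold changes from -0.81 for the ISG15 ligase gene Herc6 to 0.26 for the peptide transporter gene Tap1. At an unadjusted p under 0.05, 12 of the 31 members would have been called.

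**Figure D2:**
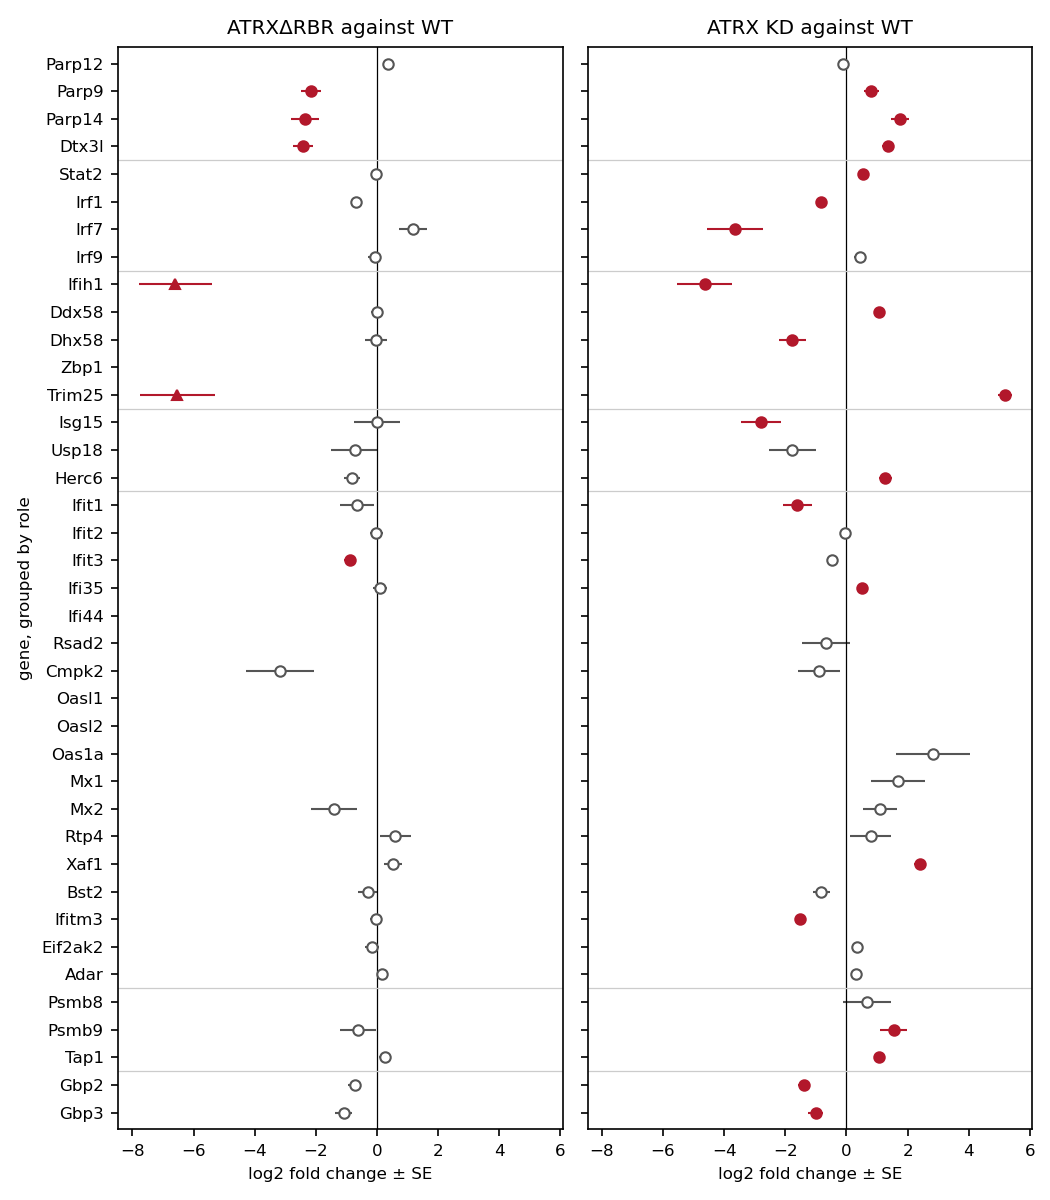
Log2 fold change with its standard error for each gene tested in ATRXΔRBR (left) and ATRX KD (right) against WT. Filled red symbols passed the test, open symbols did not, triangles mark genes with no count in the ATRXΔRBR libraries, whose fitted value depends on the method, and genes without a symbol were not tested. All called genes lie left of 0 in ATRXΔRBR, whereas ATRX KD has called genes on both sides.

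The libraries labelled ATRX KD stood farther from WT, with 33.0% of 16785 genes called over all (15.2% higher and 17.8% lower). Of the 35 members tested, 11 rose and 9 fell (57.1%), and the median log2 fold change was 0.33, compared with -0.02 for all genes. Leaving out genes past the filter in only 1 group, 17 of 28 members were called, 11 higher and 6 lower. Over all genes the share was then 33.1%. Irf7, Ifih1 and Isg15, called lower below, are among those left out, as they reached the filter in WT but not in ATRX KD. The 3 neighbours on chromosome 16 rose. Parp9 was 17.2 and 14.7 TPM in ATRX KD (log2 fold change 0.81 ± 0.24, adjusted p = 0.0357), Parp14 5.01 and 4.87 TPM (1.75 ± 0.30, adjusted p = 0.00522) and Dtx3l 7.77 and 8.62 TPM (1.35 ± 0.19, adjusted p = 0.00282). Every ATRX KD library was above every WT library for these genes. Parp12 was 27.8 and 24.7 TPM in ATRX KD, with a log2 fold change of -0.11 ± 0.13 (adjusted p = 0.575) after scaling of the counts but a higher mean TPM than in WT, so its direction depends on the scale.

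Trim25 rose most. It went from 14 and 10 counts in WT to 321 and 772 counts in ATRX KD, which is 0.35 and 0.31 TPM against 15.1 and 14.2 TPM, a 36.5-fold difference (log2 fold change 5.19 ± 0.22, adjusted p = 4.24e-05). Ddx58, the sensor on which the TRIM25 protein is known to act, also rose, to 38.9 and 35.1 TPM (log2 fold change 1.08 ± 0.15, adjusted p = 0.00237). The other sensors of this family went the other way. Ifih1 had 0 and 1 counts, a ratio of 30.7 between WT and ATRX KD with a 95% counting interval of 5.03 to 1260 (adjusted p = 0.00845). Dhx58 fell to 1.39 and 0.72 TPM (log2 fold change -1.77 ± 0.45, adjusted p = 0.0221).

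Among the transcription factors, Stat2 rose to 59.1 and 51.9 TPM (log2 fold change 0.53 ± 0.14, adjusted p = 0.0229). Irf1 fell to 40.1 and 41.9 TPM (-0.83 ± 0.13, adjusted p = 0.00357). Irf7, the factor that amplifies the interferon response, had 9 and 13 counts in WT and 0 and 2 in ATRX KD, a ratio of 13.5 with a 95% counting interval of 3.32 to 119 (adjusted p = 0.0218). Irf9, the DNA-binding partner of the STATs, was 8.32 and 12.3 TPM in WT and 16.8 and 16.3 TPM in ATRX KD and did not pass (adjusted p = 0.116).

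The effectors and the ISG15 system were divided. Xaf1, a pro-apoptotic gene, was 2.50 and 3.05 TPM in WT and 17.6 and 20.7 TPM in ATRX KD (log2 fold change 2.40 ± 0.19, adjusted p = 0.000323). Herc6 rose from 7.55 and 12.7 TPM to 22.6 and 22.2 TPM (1.27 ± 0.21, adjusted p = 0.00476), and Ifi35 rose to 54.0 and 53.3 TPM (0.50 ± 0.15, adjusted p = 0.0436). In the opposite direction, Ifitm3 fell to 109 and 117 TPM, 2.88-fold below WT (log2 fold change -1.53 ± 0.15, adjusted p = 0.000724). Isg15, the ubiquitin-like modifier that HERC6 attaches to proteins in mice, fell from 3.48 and 2.59 TPM to 0.34 and 0.57 TPM (-2.79 ± 0.66, adjusted p = 0.018), on 5 counts in ATRX KD. Ifit1 fell from 1.49 and 1.16 TPM to 0.38 and 0.58 TPM (-1.61 ± 0.48, adjusted p = 0.0408). Ifit2, Eif2ak2 and Adar, at 38.1 and 35.5 TPM, 55.8 and 59.7 TPM, and 28.2 and 33.5 TPM in ATRX KD, did not pass (adjusted p from 0.113 to 0.77). Bst2, at 9.45 and 10.5 TPM in ATRX KD, was below both WT libraries but missed the threshold (log2 fold change -0.82 ± 0.29, adjusted p = 0.0653).

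Genes of the antigen-processing locus on chromosome 17 rose. Tap1, which encodes a subunit of the peptide transporter, was 10.7 and 8.60 TPM in WT and 19.98 and 24.2 TPM in ATRX KD (log2 fold change 1.06 ± 0.16, adjusted p = 0.00327). Psmb9, an immunoproteasome subunit gene whose start is 211 bp from that of Tap1, was 3.29 and 1.71 TPM in WT and 11.95 and 11.9 TPM in ATRX KD (1.55 ± 0.44, adjusted p = 0.0331, and 2.26 without WT replicate 1). Psmb8, at 7 counts or fewer in every library, did not pass (adjusted p = 0.553). Both guanylate-binding protein genes fell, Gbp2 from 9.99 and 12.3 TPM to 4.67 and 5.09 TPM (-1.39 ± 0.19, adjusted p = 0.00251) and Gbp3 from 4.62 and 4.61 TPM to 2.85 and 2.58 TPM (-1.01 ± 0.25, adjusted p = 0.0208).

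Several of these calls rest on few counts or on 1 library. DESeq2 called 13 of the members and 28.7% of all genes, and it did not call Irf7, Isg15, Ifit1, Ifi35, Dhx58, Psmb9 and Gbp3. Without ATRX KD replicate 1 the calls of Parp9 (adjusted p = 0.0718), Stat2 (0.161), Ifit1 (0.137), Ifi35 (0.189) and Gbp3 (0.0747) were lost, and without ATRX KD replicate 2 those of Stat2 (0.153), Ifit1 (0.0707), Ifi35 (0.267), Dhx58 (0.143) and Gbp3 (0.146). Ifit1 was also lost without WT replicate 1 (0.109). The fitted log2 fold changes of Irf7 and Ifih1 went from -3.64 to -6.35 and from -4.63 to -6.52 without ATRX KD replicate 2.

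**Figure D3:**
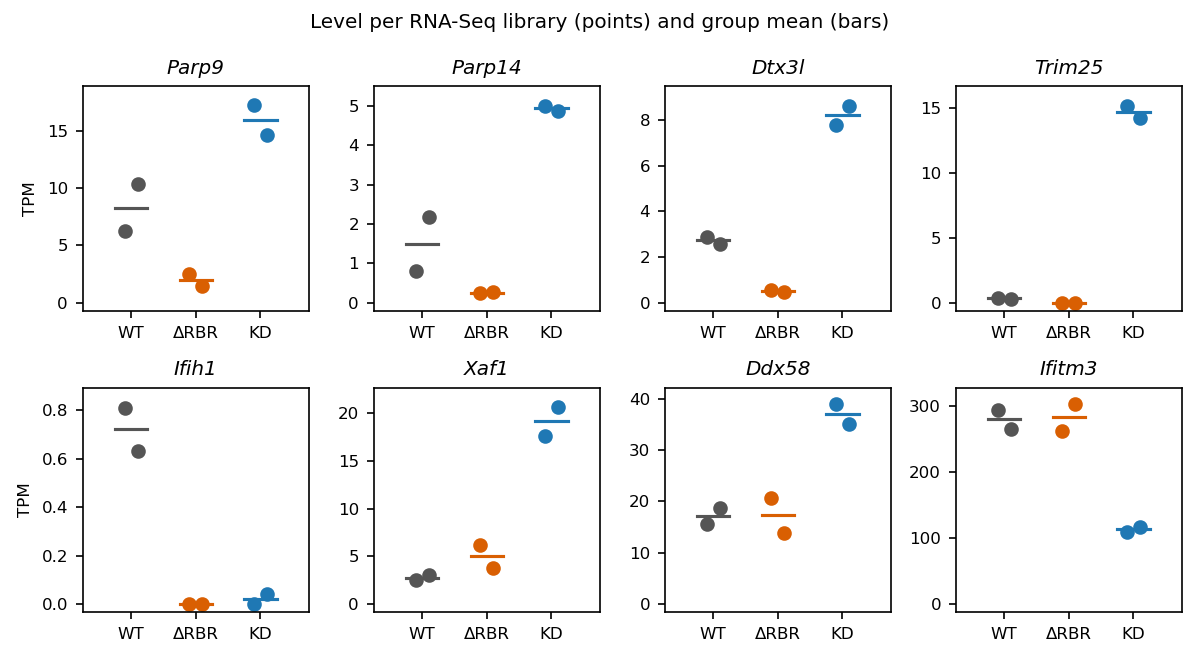
TPM of 8 genes in each library (points, 2 per group) with the group mean (bar), on an axis of its own for each gene. Parp9, Parp14, Dtx3l and Trim25 are lowest in ATRXΔRBR and highest in ATRX KD, Ifih1 is near 0 in both, Xaf1 and Ddx58 are highest in ATRX KD, and Ifitm3 is lowest there.

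The 2 comparisons share the WT libraries, so ATRX KD was also compared with ATRXΔRBR directly. Of 32 members tested, 12 rose and 6 fell in ATRX KD (56.2%), compared with 34.7% of 16520 genes over all. Leaving out genes past the filter in only 1 group, 14 of 26 members were called, 10 higher and 4 lower, compared with 34.0% over all. Those left out here were Trim25, Mx1, Mx2, Irf7, Isg15 and Oas1a. Called against WT in both genotypes were 5 members, of which Parp9, Parp14, Dtx3l and Trim25 fell in ATRXΔRBR and rose in ATRX KD, whereas Ifih1 fell in both. The direct difference was 7.80-fold for Parp9 (log2 fold change 2.96 ± 0.22, adjusted p = 2.23e-05), 4.08 ± 0.26 on the log2 scale for Parp14 and 3.76 ± 0.24 for Dtx3l. Trim25 had 0 and 0 counts in ATRXΔRBR and 321 and 772 in ATRX KD, at least 276-fold higher. Herc6, at 7.11 and 3.97 TPM in ATRXΔRBR, differed by 2.06 ± 0.18 (adjusted p = 6.53e-05). Irf7 lay on the other side, with 20 and 26 counts in ATRXΔRBR and 0 and 2 in ATRX KD, a ratio of 30.4 with a 95% counting interval of 7.95 to 259. Parp12, Irf9 and Mx2 were called in this comparison alone, at log2 fold changes of -0.49, 0.52 and 2.48. Their adjusted p rose to as much as 0.317 for Parp12 without ATRX KD replicate 2, 0.369 for Irf9 without ATRX KD replicate 1 and 0.075 for Mx2 without ATRXΔRBR replicate 2. The calls of Stat2 (0.141 and 0.157) and Gbp2 (0.172 and 0.232) were also lost without either ATRX KD library, and those of Dhx58 (0.133) and Tap1 (0.0733) without ATRX KD replicate 2.

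ATRX was found at the start of few of these genes. The number of members with an ATRX peak within 2 kb of the start was 4 and 1 in the WT lists and 5 and 1 in the ATRXΔRBR lists, between 2.6 and 12.8% of members. Of all 22028 protein-coding genes, 12.0% and 5.74% had one in the WT lists and 13.6% and 4.95% in the ATRXΔRBR lists. Dhx58 was the 1 member with a peak in both WT lists, and ATRXΔRBR list 2 also had it. These peaks lay inside the gene, beginning between 1620 and 1731 bp after the start. Stat2 and Rtp4, a chaperone gene with antiviral activity, each had an ATRX peak in list 1 of both genotypes and in neither list 2. Rtp4 was 2.42 and 1.43 TPM in WT, 2.91 and 3.36 TPM in ATRXΔRBR, and 6.12 and 1.87 TPM in ATRX KD, where its libraries were far apart. None of the 6 genes that fell in ATRXΔRBR had an ATRX peak at its start in any list.

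EZH2 peaks at the start were common in WT and ATRXΔRBR. In WT 18 and 16 of the 39 genes had one, and in ATRXΔRBR 18 and 12, compared with 50.4% and 46.6% of protein-coding genes in WT and 49.0% and 34.9% in ATRXΔRBR. The WT shares were also taken by RNA level. Of the 14 members at 10 TPM or more in WT, 7 had EZH2 in each WT list, compared with 85.2% and 79.1% of protein-coding genes at that level. Of the 12 at 1 to 10 TPM, 7 and 5 had it, compared with 63.7% and 58.1%. Of the 13 under 1 TPM, 4 had it in each list (30.8%), compared with 18.3% and 17.0%. These differences were not tested. The shared region between Parp9 and Dtx3l had an EZH2 peak in all 4 of these lists. Ddx58 was the 1 member with EZH2 in both WT lists and in neither ATRXΔRBR list, compared with 1.19% of protein-coding genes. In ATRX KD 3 and 5 members had an EZH2 peak, against 19.4% and 24.7% of protein-coding genes. Psmb9 and Tap1 were the members that had it in both lists, through the same peaks. The ATRX KD lists held 5376 and 7093 EZH2 peaks and the WT lists 22316 and 18351, so fewer peaks were listed in ATRX KD over the whole genome. The highest −log10 q of a peak (from the adjusted p given by MACS2) was 179 and 178 in the ATRX KD lists and 36.8 and 25.6 in WT. Read depth is not known from the lists, and the reason for this gap was not tested.

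**Figure D4:**
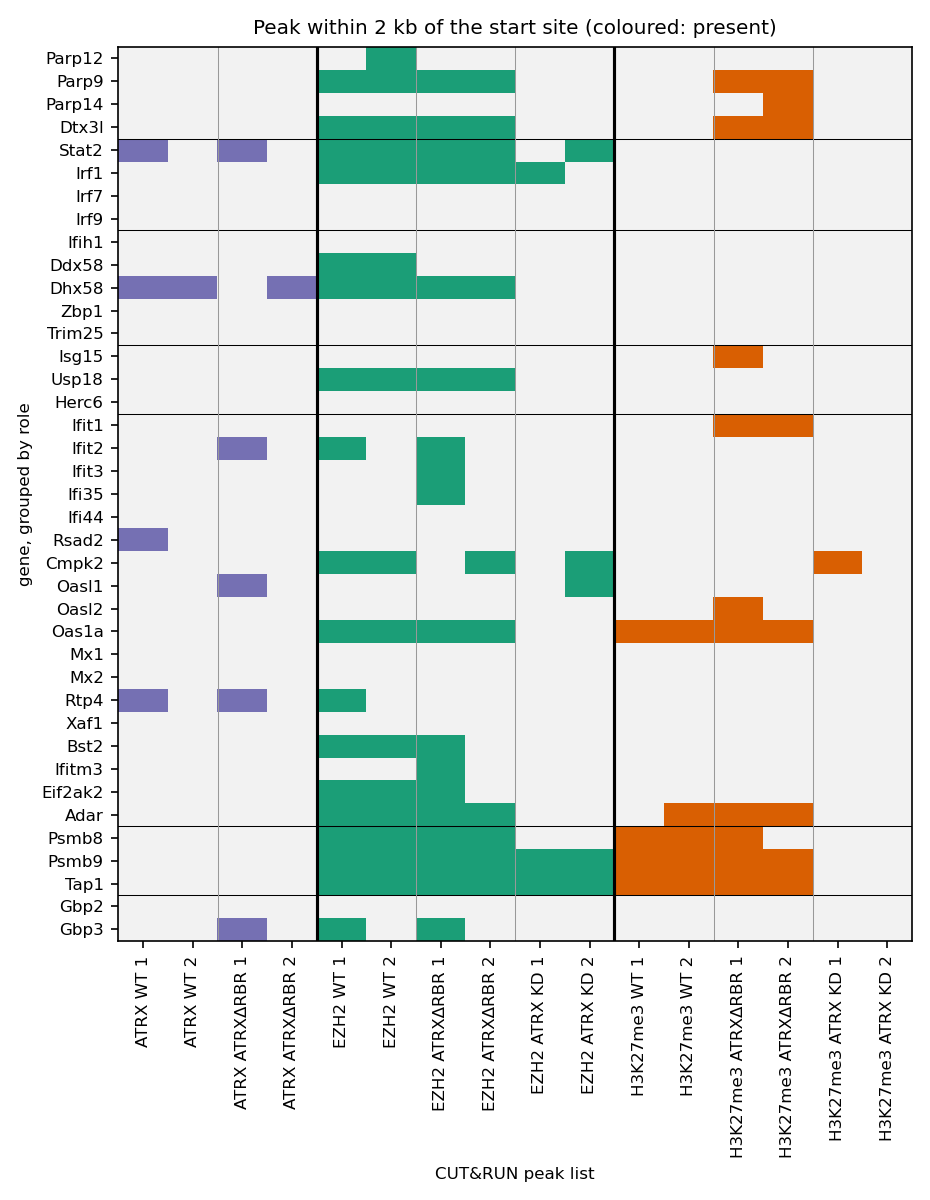
Presence (coloured) or absence (grey) of an ATRX (purple), EZH2 (green) or H3K27me3 (orange) peak within 2 kb of the start of each gene (rows) in each peak list (columns). EZH2 fills many rows in WT and ATRXΔRBR and few in ATRX KD, and Parp9, Dtx3l and Ifit1 have H3K27me3 in both ATRXΔRBR lists and in neither WT list.

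H3K27me3 was present at the start of 4 and 5 members in the WT lists and of 10 and 8 in the ATRXΔRBR lists, while the share of protein-coding genes was 15.5% and 16.4% in WT and 16.1% and 14.6% in ATRXΔRBR. In both ATRXΔRBR lists and in neither WT list, 3 members had the mark, Parp9, Dtx3l and Ifit1 (7.7%), compared with 3.61% of protein-coding genes. The reverse was seen in 0 members and in 4.28% of protein-coding genes. Parp9 and Dtx3l were counted through the same peaks, so the 3 members are not separate observations. At the start of Dtx3l the peak of ATRXΔRBR list 1 spanned 2517 bp and covered both start sites of the pair. List 2 had 2 peaks of 810 and 1070 bp there. The −log10 q from MACS2 was 2.26 in list 1 and 1.77 and 1.48 in list 2. At the stricter threshold (q of 0.01 or less) the list 2 peaks of Parp9 and Dtx3l do not pass. Both Ifit1 peaks pass it (3.07 and 2.63). Parp14 had a peak 1711 bp before its start in ATRXΔRBR list 2. When only the midpoint of a peak had to lie within the window, the mean number of members over the ATRXΔRBR lists went from 9 to 3.5. The fold enrichment over the local background was 3.19 to 3.83 for the peaks of Parp9, Dtx3l and Parp14. It was 4.01 and 3.95 for those of Ifit1, and it was not compared between lists.

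The mark was also counted over each gene with 2 kb before its start. Parp14 was covered by H3K27me3 peaks over 0 and 0% in WT and 31.9 and 12.1% in ATRXΔRBR. Dtx3l was covered over 0 and 0% in WT and 17.2 and 12.8% in ATRXΔRBR, and Parp9 over 0 and 0% and 7.0 and 5.2%. From Parp14 to Dtx3l with 10 kb on each side (chr16:35822874-35982605), cover was 0.3 and 1.5% in the WT lists, 18.1 and 11.6% in those of ATRXΔRBR and 0% in both of ATRX KD. The 3 genes that fell together in ATRXΔRBR thus stood in a region in which H3K27me3 peaks were called in that genotype and hardly in WT. Ifit1 was covered over 0 and 0% in WT and 80.7 and 99.8% in ATRXΔRBR, by peaks of 10662 and 12449 bp. Its RNA was 0.43 and 1.22 TPM in ATRXΔRBR, overlapping WT (log2 fold change -0.66 ± 0.56, adjusted p = 0.569). From Ifit2 to Ifit1 with 10 kb on each side (chr19:34540694-34660009), cover was 0 and 0% in WT and 26.2 and 29.4% in ATRXΔRBR, while the starts of Ifit2 and Ifit3 had no peak. Ifit3 fell and Ifit2 did not pass the test.

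Altogether 8 members had H3K27me3 somewhere in the gene or the 2 kb before it in both ATRXΔRBR lists and in neither WT list (20.5%), compared with 5.42% of protein-coding genes. Beside Parp9, Parp14, Dtx3l and Ifit1 these were Mx2 (14.3 and 3.9% of its length), Gbp2 (4.9 and 3.3%), Rtp4 (2.0 and 1.9%) and Herc6 (1.0 and 1.3%). None of the 39 showed the reverse, compared with 3.95% of protein-coding genes. Parp9 and Dtx3l overlap and are again counted through the same peaks, so the 8 members are not all separate regions. For scale, 796 protein-coding genes had H3K27me3 at the start in both ATRXΔRBR lists and neither WT list, and of the 359 of them tested for RNA, 69 fell (19.2%) and 5 rose. Trim25, Ifih1 and Ifit3, the other members that fell, had no H3K27me3 peak at the start or in the gene in any list.

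A second set of members carried H3K27me3 in WT. Oas1a, which encodes an oligoadenylate synthetase, was covered over 91.2 and 100% in the WT lists, 72.9 and 84.1% in those of ATRXΔRBR and 10.6 and 8.0% in those of ATRX KD. Its RNA was 0 and 0.09 TPM in WT and 0 and 0.23 TPM in ATRXΔRBR. In ATRX KD it was 0.27 and 0.50 TPM, on 2 and 9 counts, and did not pass the test (adjusted p = 0.114 against WT). Psmb9 was covered over 50.1 and 60.1% in the WT lists and 73.3 and 73.0% in those of ATRXΔRBR, and Tap1 over 23.7 and 19.0% and over 18.3 and 18.1%. Both were at 0% in the 2 lists of ATRX KD. Psmb8 was covered over 7.7 and 19.4% in the WT lists, 6.2 and 0% in those of ATRXΔRBR and 0% in both of ATRX KD. At the start, all 4 had the mark in both WT lists and in neither ATRX KD list (10.3% of members), compared with 8.61% of protein-coding genes. Psmb9 and Tap1 were counted through the same peaks, so the 4 members are not separate observations. Of these 4, Psmb9 and Tap1 rose in ATRX KD. Adar had a peak upstream of its start in WT list 2 and both ATRXΔRBR lists, and its RNA did not pass in either genotype. In ATRX KD, 1 and 0 members had H3K27me3 at the start, and 6.02% and 5.57% of protein-coding genes had it. The ATRX KD lists held 7241 and 6336 H3K27me3 peaks and the WT lists 36011 and 38832. Fewer peaks were thus listed in ATRX KD over the whole genome. The highest −log10 q was 170 and 173 in the ATRX KD lists and 17.2 and 18.7 in those of WT. Genotype and handling of the lists cannot be told apart here. Trim25 and Xaf1, which rose most in ATRX KD, had no EZH2 or H3K27me3 peak at the start in any WT list.

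**Figure D5:**
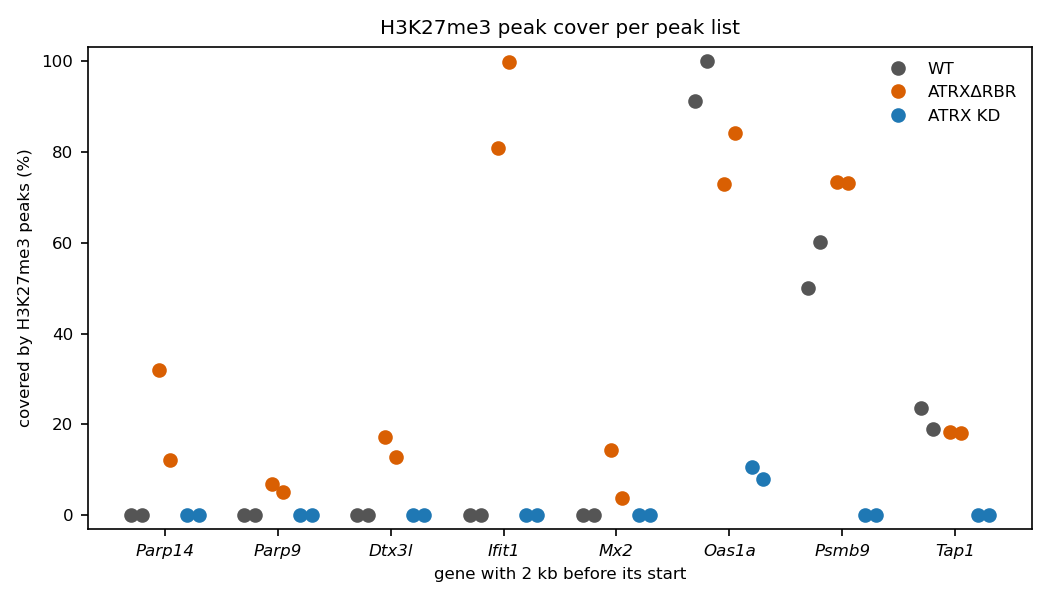
Percent of each gene, with 2 kb before its start, that was covered by H3K27me3 peaks in each list (points, 2 per genotype). Parp14, Parp9, Dtx3l, Ifit1 and Mx2 are at 0 in WT and ATRX KD and above 0 in ATRXΔRBR, whereas Oas1a, Psmb9 and Tap1 are covered in WT and ATRXΔRBR and lowest in ATRX KD.

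The ISRE core was then counted separately among members that rose and that fell in ATRX KD. Of the 8 that fell and have a promoter in the table, 6 held an ISRE core match (Isg15, Ifit1, Ifih1, Ifitm3, Gbp2 and Gbp3). Of the 9 that rose and have one, 2 held a match (Stat2 and Ddx58), and Dtx3l, Trim25, Xaf1, Herc6, Ifi35, Psmb9 and Tap1 held none in this window. The windows of Psmb9 and Tap1 overlap over most of their length, so they are not separate sequences. The start used for the Psmb9 window lies 434 bp from its GENCODE start. In the same set of protein-coding promoters, 3.90% of genes that fell in ATRX KD, 2.88% of those that rose and 2.74% of those not called held a match. In ATRXΔRBR, 2 of the 4 members that fell and have a promoter held a match (Ifih1 and Ifit3). These counts are small and were not tested. In the comparison of ATRX KD with WT, Isg15 and Ifih1 reached the count filter in WT but not in ATRX KD.

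Genes of the pathway outside the 39 were counted from 3 further lists. Of 25 interferon ligands, receptors and JAK-STAT genes, 15 were tested in ATRXΔRBR and 0 passed (3 at an unadjusted p under 0.05, and 0 with DESeq2), where 6.85% of all genes were called. In ATRX KD, where 33.0% of all genes were called, 5 rose and 2 fell among 16 tested (43.8%). Ifnar1, the receptor subunit of type I interferon, rose by 0.57 ± 0.13 and Jak1 by 0.54 ± 0.11 on the log2 scale, and Socs1, a feedback inhibitor, fell by 0.86 ± 0.26. Of 28 genes of nucleic acid sensing, 1 of 24 tested fell in ATRXΔRBR (4.17%), and 3 rose and 4 fell among 23 in ATRX KD (30.4%), both below the share of all genes called. The 1 gene was Tmem173, which encodes the adaptor STING, at 107 and 86 counts in the WT libraries, 22 and 48 in those of ATRXΔRBR, and 13 and 38 in those of ATRX KD. It fell in both genotypes (log2 fold change -1.38 ± 0.31, adjusted p = 0.0356, and -2.24 ± 0.28, adjusted p = 0.00161). Of 71 other interferon-stimulated genes, 5 rose and 2 fell among 55 tested in ATRXΔRBR (12.7%), and 20 rose and 9 fell among 56 in ATRX KD (51.8%).

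Among the larger changes of that last list were the following genes. Ifi27l2a rose in ATRXΔRBR, from 7 and 2 counts to 100 and 224 (log2 fold change 5.20 ± 0.48, adjusted p = 0.000845), and had 1 and 4 counts in ATRX KD. Ifi27, its relative, rose in both genotypes, by 2.35 ± 0.21 in ATRXΔRBR and 1.70 ± 0.18 in ATRX KD. Trim30a, a negative regulator of inflammatory signalling, had 69 and 63 counts in the WT libraries, against 3 and 7 in those of ATRXΔRBR and 0 in both of ATRX KD. It fell by 3.59 ± 0.41 on the log2 scale in ATRXΔRBR (adjusted p = 0.00226). In ATRX KD, Lgals3bp rose by 2.15 ± 0.14, whereas the chemokine gene Cxcl10 fell by 2.18 ± 0.41 and Casp12 by 2.32 ± 0.19.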

How the data were processed

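The members and gene lists were chosen with earlier results of these data known. For RNA-Seq (poly(A) RNA, stranded kit), STAR was the authors' aligner, and RSEM gave the deposited estimated counts and the deposited TPM per gene. For CUT&RUN, Bowtie2 mapping to mm10 and broad peak calling with MACS2, library by library, were done by the authors. The deposited fold enrichment (a ratio to local background), −log10 p, −log10 q and score of each peak are MACS2 output. Of these, −log10 q served for an alternative with a stricter threshold. It and the fold enrichment are also quoted for some peaks. IgG libraries were not analysed here.

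Estimated counts were rounded. Genes with more than 10 estimated counts summed over the 4 libraries compared entered edgeR 4.0.16 (TMM, quasi-likelihood test, Benjamini-Hochberg over all genes) in R 4.3.3. The test was checked on simulated data. The labels do not tie samples to separate cultures, so p-values measure only the spread between these libraries. Alternatives were DESeq2 1.42.0, other scalings, filters and TPM with pseudocounts of 1 and 0.1, the replicate number as a block, and leaving out each library. Start sites were the outermost ends of GENCODE M21 genes, and a peak overlapping 2 kb on either side was counted. Counting intervals cover counting error only. Full values are given for the 20 called members with the smallest p against WT, the 8 most abundant members, and members with ATRX or H3K27me3 peaks in 2 or more lists. Of the other lists, at most 6 called genes per list and comparison are named, by size of change, and some of these are not reported here.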

Additional observations from a re-analysis of the deposited data

Results flagged for a closer look

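For 8 members, both ATRXΔRBR libraries and both ATRX KD libraries lay on opposite sides of both WT libraries after scaling, and the direct comparison of ATRX KD with ATRXΔRBR passed the test. The log2 fold change of ATRX KD over ATRXΔRBR was 2.96 for Parp9, 4.08 for Parp14, 3.76 for Dtx3l, 11.89 for Trim25, 2.06 for Herc6, 2.48 for Mx2, -0.49 for Parp12 and -4.80 for Irf7. The value for Trim25 is a fitted one against 0 counts, and the bound given by 3 counts is at least 276-fold. Those of Mx2 and Irf7 rest on few counts, and the call of Parp12 was lost without either ATRX KD library. On the TPM scale the ATRX KD libraries of Parp12 were above the WT libraries, so its opposite sides hold only after scaling of the counts.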

How the results depend on the processing

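In ATRXΔRBR the number of members called was 6, and it was 5 to 6 when each library was left out in turn, 3 when at least 10 counts were required in every library, and 13 with the replicate numbers crossed as a block. In ATRX KD against WT it was 20, with 15 to 25 over the libraries left out and 13 with DESeq2. In ATRX KD against ATRXΔRBR it was 18, with 12 to 22 over the libraries left out and 11 with at least 10 counts in every library. Parp9, Parp14 and Dtx3l kept their calls against WT in ATRXΔRBR under every alternative that tested them, TPM aside. Ifih1 and Trim25, at 0 counts in ATRXΔRBR, enter a test only through WT, so their calls say nothing about stability. Not counting genes past the filter in 1 group only, an alternative added after seeing the data, gave 4, 17 and 14 members in the 3 comparisons. No call of a member changed direction. The count filters test fewer genes and the left-out libraries fewer samples. For DESeq2 and the crossed block the cause was not tested. The replicate numbers did not pair the libraries (correlation of deviations -0.364 in ATRXΔRBR and WT, -0.027 in ATRX KD and WT). With the numbers as a block, Ifit3 was no longer called in ATRXΔRBR, Eif2ak2 was called in ATRX KD against ATRXΔRBR, and the count of all genes in ATRXΔRBR went from 1119 to 1071. The crossed block, chosen after seeing the data, called 5585 of 16334 genes. Of the members it called 2 higher (Parp12 and Irf7) and 11 lower, whereas the main test called none higher. Irf1, Cmpk2, Herc6, Gbp2 and Gbp3 were the further members called lower only with it in this pair of fits.

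On log2(TPM + 1) the median of all genes shifted by 0.17 in ATRX KD against WT and 0.14 against ATRXΔRBR. TPM differences thus tended to read higher there, by amounts that differed between genes. In ATRX KD against WT the log2 fold change of Irf1 was -0.83 on counts and -0.51 to -0.50 on TPM. That of Tap1 was 1.06 on counts and 1.12 to 1.19 on TPM. Requiring a peak in both lists gave 0 members with ATRX in ATRXΔRBR (mean of the lists 3) and 2 with EZH2 in ATRX KD (mean 4), and the peak midpoint gave 3.5 with H3K27me3 in ATRXΔRBR (mean 9). Single lists gave 1 to 4 members with ATRX in WT, 1 to 5 in ATRXΔRBR, 16 to 18 with EZH2 in WT, 12 to 18 in ATRXΔRBR and 3 to 5 in ATRX KD, and 4 to 5, 8 to 10 and 0 to 1 with H3K27me3. Peak lists give no read depth.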
